A study of Mus musculus with 3 samples.

Results

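The cells described here are macrophages of the mouse heart in which the genes of the resident macrophage programme were at most barely detected. They were chosen from UMIs, the uniquely tagged RNA molecules counted per cell barcode. A barcode entered when its UMIs of Csf1r, Adgre1, Mrc1, C1qa, C1qb and C1qc summed to at least 3 and to at least 2 times the sum of the endothelial, fibroblast and pericyte genes Ptprb, Flt1, Pdgfra, Dcn and Abcc9. F13a1, Cd163, Timd4 and Lyve1, here called the resident genes, had to sum to at most 1 UMI, and the cell cycle genes Top2a, Mki67, Cenpf, Cenpe, Aspm and Kif11 to at most 3. This rule left 214 of 18021 barcodes, called resident-low macrophages below. The other macrophages that passed the same macrophage and cell cycle conditions, with resident genes summing to at least 2 UMIs, number 2350 and are called resident-type. Since the rule read the expression of these cells, every comparison of resident-low with resident-type macrophages is a description of how the chosen cells look, without a test.

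The study profiled ventricles of C57B6 mice that had a sham operation (Sham, given vehicle), transverse aortic constriction (TAC, given vehicle), or TAC with the antimalarial artesunate (TAC+ART). TAC narrows the aorta and loads the left ventricle with pressure. The hearts were kept frozen and run on the 10x Genomics platform, with the tissue of 3 hearts pooled per group into 1 library. With 1 library per group there is no replicate and no test between groups, and the 95% intervals given below cover counting error only.

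The heart holds macrophages of more than 1 origin. Resident macrophages, seeded before birth and self-renewing, are known by Timd4, Lyve1, Folr2, Cd163 and F13a1 and take up debris and dying cells. Others come from circulating monocytes, carry the chemokine receptor Ccr2 and often MHC class II, the molecules that present antigen to helper T cells, and become more frequent in injured or loaded hearts.

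Resident-low macrophages numbered 27 of 3752 barcodes in the Sham library, 129 of 7413 in TAC and 58 of 6856 in TAC+ART. The Sham cells held 87367 UMIs in all, the TAC cells 526022 and the TAC+ART cells 221681, so the Sham values are the least precise. Their median depths in these libraries, in the same order, were 3083, 3767 and 3640 UMIs per barcode, below the 4302, 5024 and 4682 of resident-type macrophages. Whole libraries held between 17710689 and 37658150 UMIs. Libraries shared 20 to 27 barcode sequences with each other, and 0 of the resident-low barcodes was among them. A sum of at most 1 UMI is easier to meet in a shallow barcode. Free RNA bears on it too, since 23.6% of Sham cardiomyocyte barcodes and 38.3% of those of TAC and of TAC+ART also held at least 1 UMI of the resident genes. The macrophage genes of the rule, which let barcodes in, gave at least 1 UMI in 25.5%, 64.6% and 59.5% of these barcodes. At least 3 were held by 1.78%, 11% and 6.75% of Sham, TAC and TAC+ART fibroblast barcodes. The rule reads no cardiomyocyte gene, and the part of free RNA in the number of members was not tested.

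The resident genes sat at or near 0 by construction. None of their UMIs was found in 12 Sham, 81 TAC and 35 TAC+ART barcodes, and 15, 48 and 23 held 1. Just outside the limit, 7, 33 and 19 macrophages held 2. F13a1, a coagulation factor subunit made by resident macrophages, gave 10, 33 and 14 UMIs in the Sham, TAC and TAC+ART resident-low cells, against a level of 4880 to 6934 CPM (UMIs scaled to 1000000 per class) in resident-type cells. The macrophage genes of the rule summed to a median of 9, 13 and 13.5 UMIs per barcode in the Sham, TAC and TAC+ART libraries, where resident-type cells had 19, 25 and 26. At the lower limit of 3 UMIs there were 1, 4 and 2 members, and 4, 10 and 3 barcodes with 2 UMIs lay just outside. The ratio to endothelial, fibroblast and pericyte genes kept out 5, 72 and 52 further barcodes.

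**Figure D1:**
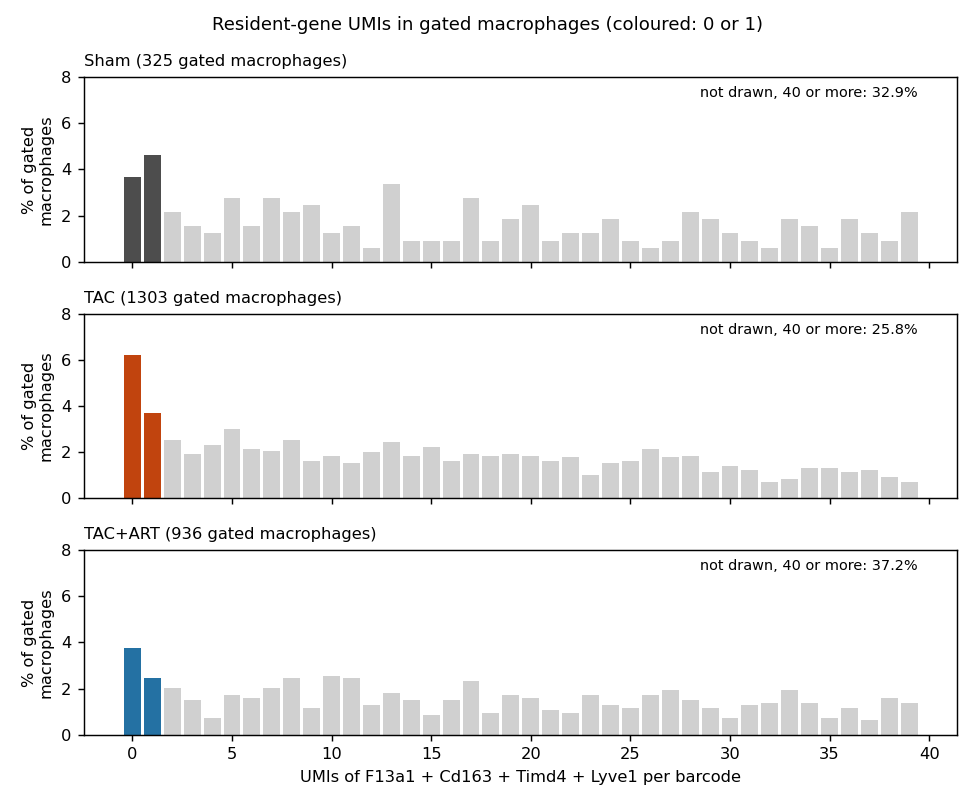
Resident-gene UMIs (F13a1, Cd163, Timd4 and Lyve1 summed) per barcode in each library, as the percentage of gated macrophages at each count from 0 to 39. Bars at 0 and 1, coloured, are the resident-low macrophages, and 25.8% to 37.2% of gated macrophages lie at 40 or more and are not drawn.

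The cells carried the markers by which the group was named, but not evenly. Ccr2, the receptor for the monocyte chemokine CCL2, had a level of 664 CPM in Sham cells, 382 in TAC cells and 379 in TAC+ART cells, from 58, 201 and 84 UMIs. Resident-type macrophages had 52.4, 52.1 and 75.1 CPM, so all 3 libraries were higher in the resident-low cells and no level overlapped. A UMI of Ccr2 was seen in 37% of the Sham cells, 41.9% of the TAC cells and 43.1% of the TAC+ART cells, against 6.71%, 8.6% and 8.77% of resident-type cells and 0.5% to 1.3% of cardiomyocyte barcodes. With every barcode thinned to 1000 UMIs the shares were 29.6%, 24.8% and 22.4%, against 3.69%, 3.15% and 4.9%.

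Cd72, a receptor of B cells and macrophages, was at 114, 101 and 158 CPM in Sham, TAC and TAC+ART, above the 29.8, 45.8 and 35.6 of resident-type cells in each library. The lectin receptor Clec4b1 was at 160, 103 and 99.2 CPM against 51, 21.2 and 71, with the smallest gap in TAC+ART. Lilra5, an immunoglobulin-like activating receptor, was at 137, 141 and 149 CPM against 93.5, 118 and 130, and the counting intervals of its 3 ratios all included 0. Adgre1, which encodes the F4/80 antigen and belongs to the rule, was at 652, 835 and 663 CPM against 684, 903 and 764. Thus Ccr2 and Cd72 set these cells apart in every library, and Clec4b1 in Sham and TAC. For Lilra5 and Adgre1, and for Clec4b1 in TAC+ART, the classes differed by no more than the counting error. At least 3 of the 5 markers were seen in 9 of 27, 48 of 129 and 21 of 58 cells, or 33.3%, 37.2% and 36.2%, and 27 of the 214 cells showed none. Of resident-type cells, 15.1%, 15.1% and 18.6% showed at least 3 of the markers, and 143 of 2350 showed none.

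**Figure D2:**
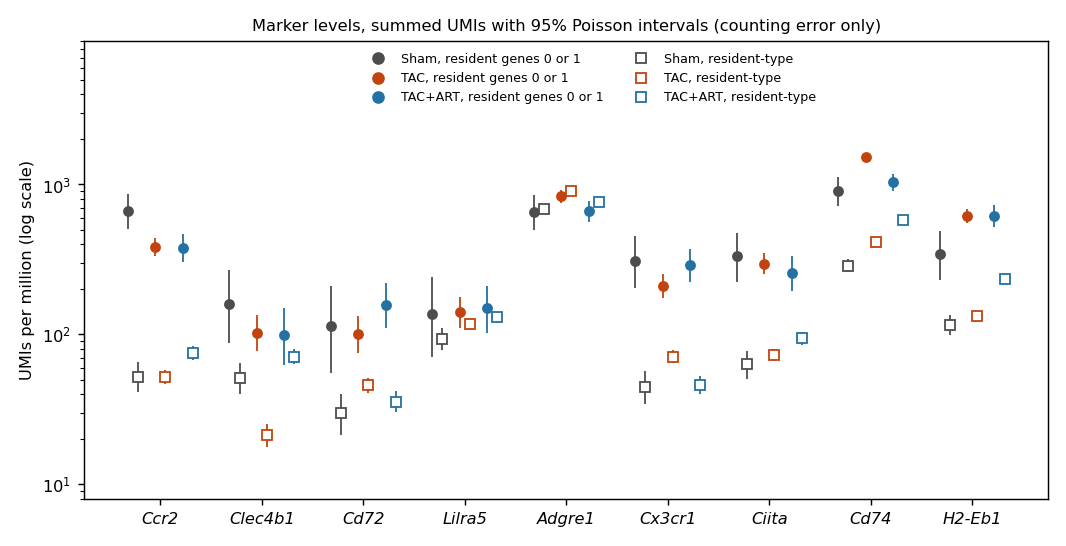
Levels of marker genes as CPM, on a log scale, in resident-low (filled) and resident-type (open) macrophages of each library, with 95% Poisson intervals. Ccr2, Cx3cr1, Ciita, Cd74 and H2-Eb1 lie higher in the resident-low cells of every library, and Adgre1 does not.

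Markers of other cells were present at varied levels. The monocyte genes Ly6c2 and Plac8 gave at most 2 UMIs in any library, and Flt3, which marks dendritic cells, gave 6 UMIs in 1 TAC barcode and 0 elsewhere. In the Sham, TAC and TAC+ART cells the monocyte list summed to 34.3, 215 and 198 CPM (46.8, 134 and 111 in resident-type cells) and the dendritic list to 137, 105 and 58.6 (115, 83 and 89.8). The T or NK list had all 8 genes at 0 in Sham and reached 89.3 CPM in TAC and 4.51 CPM in TAC+ART, and 4 TAC cells held at least 2 of its UMIs. The B cell list, which includes Bank1, was at 572, 221 and 410 CPM (1004, 622 and 952 in resident-type cells), and 37%, 23.3% and 36.2% of resident-low cells held at least 2 of its UMIs. The endothelial list was at 389, 437 and 695 CPM against 553, 404 and 508. The 10 cardiomyocyte genes reached 12247, 9578 and 12130 CPM against 5173, 5669 and 5640, and the most in 1 barcode was 672 UMIs. In 3 Sham, 7 TAC and 4 TAC+ART cells, Ttn, Ryr2, Myh6, Tnnt2 and Ctnna3 made up at least 2% of all UMIs. The fibroblast list was at 1328, 2547 and 3090 CPM against 1150, 2171 and 2565. The part of these foreign transcripts in single results was not tested, except where values without the cardiomyocyte-rich barcodes are given.

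Across all gated macrophages of the 3 libraries pooled, Ccr2 was lower where resident-gene UMIs were more. A UMI of Ccr2 was present in 41.4% of macrophages with 0 resident UMIs, 41.9% with 1, 30.5% with 2, 16.8% with 3 to 5, 10.9% with 6 to 10, 10.4% with 11 to 20 and 5.59% with more than 20. Its level went from 388 CPM at 0 to 27.9 CPM above 20, while the median depth went from 3512 to 5471 UMIs over the same range. Cx3cr1, the fractalkine receptor, went from 44.5% of barcodes to 14.3%, and Ciita, the master activator of MHC class II genes, from 43% to 12.4%. In the opposite direction, Pdgfc, a growth factor for fibroblasts, went from 20.5 to 580 CPM and the scavenger lectin Colec12 from 121 to 858. Values at 0 and 1 resident UMIs were close for Ccr2 and Ciita, and the macrophages with 2 UMIs, outside the rule, were nearer to the chosen cells than to those above 20. By library, the Ccr2 share at 0, 1, 2 and above 20 was 33.3%, 40%, 71.4% and 3.21% in Sham. It was 42%, 41.7%, 24.2% and 5.87% in TAC and 42.9%, 43.5%, 26.3% and 6.03% in TAC+ART. Only 7 Sham macrophages held 2, and their Cx3cr1 share of 14.3% was nearer to the 9.09% above 20. The plot of resident-gene UMIs shows no gap between 1 and 2 UMIs.

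Over 4647 measured genes, 93 were at least 2-fold higher in resident-low than in resident-type macrophages in all 3 libraries (2.0%) and 59 at least 2-fold lower (1.27%). Of the 93, 34 were more than 5-fold lower than in another heart cell type, and 29 of these were highest in cardiomyocytes. Without the cardiomyocyte-rich barcodes, 3 of those 34 but 58 of the other 59 were still called. Of the higher genes, 23 no longer passed the filter for measured genes there, so their ratios were not judged. The description below keeps to the 59 higher genes that were not more than 5-fold lower than in another cell type, and to 58 of the lower genes.

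Ccr2 was among the 15 leading genes, with log2 ratios of 3.67 (3.14 to 4.18) in Sham, 2.88 (2.61 to 3.13) in TAC and 2.34 (1.97 to 2.68) in TAC+ART. Grap2, an adaptor protein known from T cell receptor signalling, was at 114, 118 and 135 CPM against 9.21, 7.77 and 7.12, and its log2 ratio was 3.65, 3.92 and 4.25. It was seen in 4 Sham, 31 TAC and 17 TAC+ART cells, while 2 or more T or NK marker UMIs were held by 0, 4 and 0. Fgr, a Src-family kinase of myeloid cells, was at 103, 148 and 131 CPM against 13.5, 17.3 and 8.73. Rasgrp1, an activator of Ras, had ratios of 3.20, 2.85 and 2.48, and Cytip, which binds integrin regulators in leukocytes, 2.87, 1.75 and 2.73. Dock5, a Rac activator, had 2.94, 2.80 and 3.99 and Dgkg, a diacylglycerol kinase, 2.95, 3.55 and 3.25. The orphan receptor Gpr141 had 3.28, 3.87 and 2.71. Cx3cr1, which monocytes and tissue macrophages use to sense fractalkine, was at 309, 211 and 289 CPM against 44.6, 71.2 and 46.2.

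The remaining leading genes were the transcripts 5430437J10Rik, Gm15155 and 4930479D17Rik, Xylt1, which starts glycosaminoglycan chains, Nes, an intermediate filament, and Noct, a circadian phosphatase. Their log2 ratios lay between 1.49 and 4.28 in TAC and TAC+ART. Gm15155 rests in Sham on 7 UMIs of 1 barcode, and Noct in Sham on 3 UMIs with an interval that includes 0. In each of the other leading genes, the ratio lay above 1 in every library also without the barcode that held most of its UMIs.

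**Figure D3:**
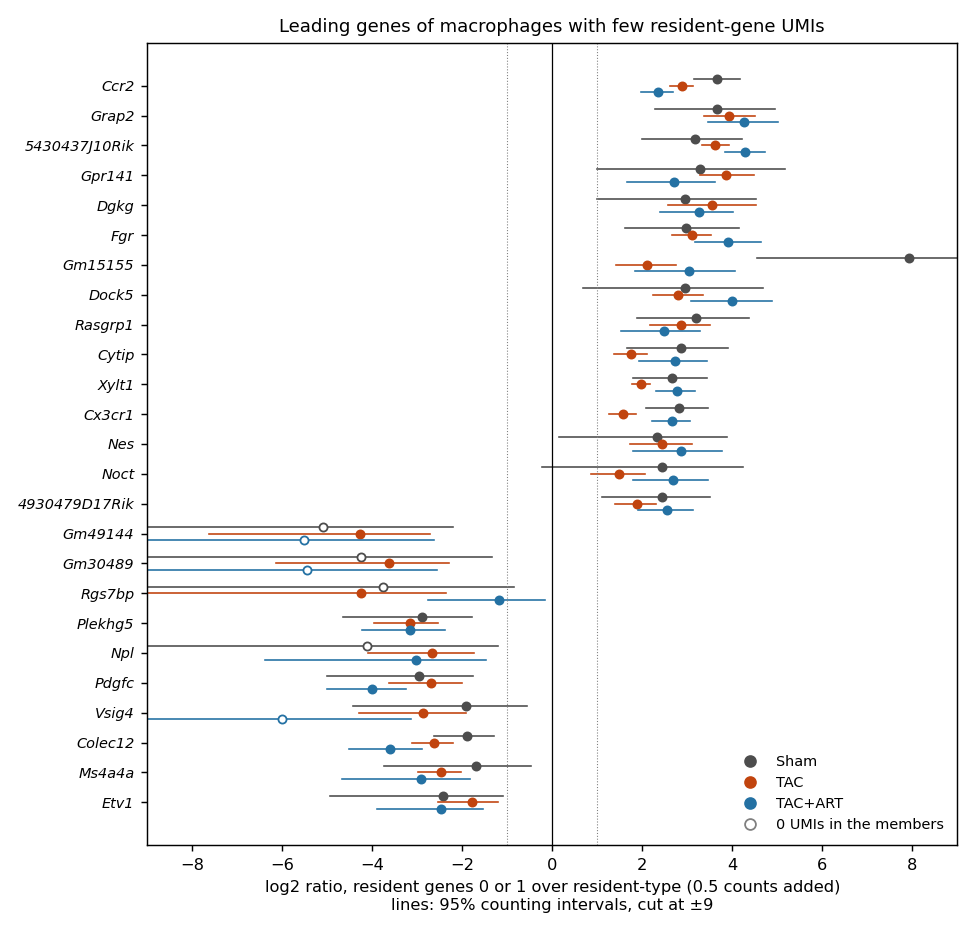
Log2 ratio of resident-low over resident-type macrophages in each library for the 15 highest and 10 lowest genes called in all 3, with 95% counting intervals drawn to 9 on either side. Open points mark genes with 0 UMIs in the resident-low cells of that library, where the fitted value is no measured fold.

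Of the 59 lower genes, 13 were on the list of resident macrophage genes, a programme from which the rule had drawn its 4 resident genes. Pdgfc was at 45.8, 26.6 and 54.1 CPM against 397, 179 and 900 in Sham, TAC and TAC+ART. Vsig4, a complement receptor of tissue macrophages, gave 3, 7 and 0 UMIs, and in TAC+ART was at least 10.8-fold lower than in resident-type cells when 3 counts are taken as the floor. Colec12 was at 240, 81.7 and 63.2 CPM against 910, 509 and 791, and 17 of its 21 Sham UMIs came from 1 barcode. Plekhg5 had log2 ratios of -2.89, -3.16 and -3.17. Npl, which cleaves sialic acid, gave 0, 7 and 2 UMIs and was at least 2.87-fold lower in Sham. The membrane protein gene Ms4a4a was at 45.8, 74.1 and 22.6 CPM against 166, 415 and 187, and the transcription factor Etv1 at 34.3, 39.9 and 31.6 against 215, 142 and 189. The transcripts Gm49144 and Gm30489 gave 0 UMIs in Sham and TAC+ART, and Rgs7bp 0 UMIs in Sham. In all, 8 of the 59 lower genes had no UMI in the Sham resident-low cells, where 3 counts correspond to 34.3 CPM.

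Of 10 measured genes of MHC class II presentation, 3 were at least 2-fold higher in all libraries and 0 lower, where 2.0% of all genes were higher. The median log2 ratio was 1.19 where all genes had 0.06. Ciita was at 332, 297 and 257 CPM against 63.1, 73.1 and 94. H2-Eb1, a chain of the presenting molecule, was at 343, 618 and 618 against 115, 133 and 236, and H2-Ab1 at 217, 530 and 474 against 101, 122 and 190. Cd74, the invariant chain that guides their assembly, was at 904, 1523 and 1033 CPM against 287, 412 and 576. At least 2 UMIs of the MHC class II genes were seen in 55.6%, 76% and 79.3% of resident-low cells and in 38.3%, 41.7% and 61.3% of resident-type cells. Reads of the H2 genes, of Clec4b1 and of Klra2, a natural killer type lectin receptor, can be shared with close relatives, so their levels are uncertain in that respect.

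Over all genes, 2.0% were at least 2-fold higher and 1.27% lower in all 3 libraries, and the counts for the lists below stand beside these shares. The list of resident macrophage genes had 0 of 22 higher and 13 lower, with a median of -1.29. The monocyte-derived list had 3 of 10 higher and 0 lower, with a median of 0.70, the 3 being Ccr2, Cx3cr1 and Cd72. Both lists were drawn up with these differences known. In the scavenging and efferocytosis list 4 of 16 were lower and 1 higher. Stab1, a scavenger receptor, was at 366, 365 and 266 CPM against 921, 1024 and 818. The TAM receptors that recognise dying cells went opposite ways. Axl was at 229, 310 and 275 CPM against 80.1, 114 and 107, and Mertk at 240, 572 and 392 against 565, 935 and 874. Gas6, a ligand of both, was at 68.7, 95.1 and 76.7 against 292, 269 and 340. Of 9 complement genes, 3 were lower and 0 higher, Vsig4 among the lower.

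Of 25 myeloid transcription factors, 1 was higher and 1 lower, counts near the 2.0% and 1.27% of all genes. Pparg, a nuclear receptor of lipid handling, was at 195, 215 and 302 CPM against 70.1, 55.8 and 88.5. Maf, a driver of the resident programme, was at 595, 483 and 573 against 1296, 1241 and 1484, while Spi1, which encodes the myeloid factor PU.1, was at 320, 331 and 271 against 259, 271 and 266. Rbpj, the nuclear effector of Notch, was lower by similar amounts in the 3 libraries, with log2 ratios of -1.13, -1.12 and -1.08. Tgfbr1, a receptor for transforming growth factor beta, was at 790, 1245 and 1543 CPM against 210, 410 and 306, and Vegfa, an angiogenic factor, at 126, 66.5 and 113 against 44.6, 26.4 and 32.2. The chemokine gene Cxcl16 had ratios of 1.79, 1.21 and 1.78. In the lists for interferon response (20 genes measured), the TLR4 and MD2 pathway (19), lysosome and iron (25), oxidative burst (10), lipid-associated macrophages (16) and heat shock (9), 0 genes were 2-fold apart in all 3 libraries in either direction.

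Promoters of 3 genes are shown because Cd72 and Klra2 were higher and Vsig4 lower in these cells and each holds the core of the site bound by PU.1. They are the 250 bases before the annotated start, from RefSeq on GRCm38.p6, written in the direction of the gene, all 3 on the minus strand. Capitals mark GAGGAA or, where the site is on the other strand, TTCCTC. Cd72 lies at chr4:43454627-43454876, Klra2 at chr6:131247363-131247612 and Vsig4 at chrX:96293439-96293688.
Cd72: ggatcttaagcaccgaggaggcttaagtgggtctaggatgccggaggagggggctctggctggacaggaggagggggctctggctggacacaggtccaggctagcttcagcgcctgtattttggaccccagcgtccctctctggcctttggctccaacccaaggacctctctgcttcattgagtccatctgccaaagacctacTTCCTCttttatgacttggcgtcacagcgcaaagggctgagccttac
Klra2: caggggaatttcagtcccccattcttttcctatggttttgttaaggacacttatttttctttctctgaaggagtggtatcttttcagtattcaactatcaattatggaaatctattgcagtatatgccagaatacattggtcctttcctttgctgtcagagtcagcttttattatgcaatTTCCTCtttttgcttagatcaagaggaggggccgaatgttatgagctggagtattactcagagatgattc
Vsig4: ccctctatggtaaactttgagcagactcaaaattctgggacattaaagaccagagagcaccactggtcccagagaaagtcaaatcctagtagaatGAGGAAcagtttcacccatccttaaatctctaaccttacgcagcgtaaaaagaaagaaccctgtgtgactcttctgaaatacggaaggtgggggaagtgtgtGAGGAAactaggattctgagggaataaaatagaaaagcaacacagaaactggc
The site lies 47 bases before the start in Cd72 and 70 in Klra2, both on the other strand, and 155 and 53 bases before it in Vsig4. Klra2 was at 126, 129 and 189 CPM against 31.9, 38.2 and 35.2. GAGGAA on either strand was present in a promoter window of 17 of 44 matched higher genes (38.6%), 11 of 40 lower genes (27.5%) and 4346 of all 16475 genes (26.4%). TGCTGA, the core shared by sites of Maf factors, was present in 9 higher genes (20.5%), 13 lower genes (32.5%) and 16.9% of all genes. These shares count any window of a gene. With only the first window of each gene, GAGGAA was in 29.5% of higher, 20% of lower and 23.1% of all genes. TGCTGA was then in 15.9%, 20% and 14.3%. All of these are matches of letters in short windows and say nothing about binding.

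Resident-low macrophages were not uniform, and Ccr2 and MHC class II went together within them. A UMI of Ccr2 was present in 89 of the 214 cells (10 Sham, 54 TAC and 25 TAC+ART cells) and absent from 125. The split uses 1 gene, so missing it in a shallow cell is possible. The median depth was 3900 UMIs with Ccr2 and 3403 without. Cells with 0 resident UMIs made up 59.6% and 60% of the 2 sets. Values of the 2 sets pool the 3 libraries unless a library is named. Cd74 was seen in 98.9% of cells with Ccr2 and 64% without, H2-Eb1 in 95.5% and 38.4%, H2-Aa in 87.6% and 44.8%, and H2-Ab1 in 84.3% and 33.6%. In Sham, TAC and TAC+ART, Cd74 was in 100%, 98.1% and 100% with Ccr2 and 35.3%, 66.7% and 72.7% without. For H2-Aa the sides were closer in Sham, at 50% and 35.3%. Ciita was seen in 71.9% against 23.2%, at 529 and 104 CPM. Cx3cr1 was seen in 59.6% against 28%.

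Grap2, of the leading genes, and 3 lectin receptors were also seen more often with Ccr2. Clec4b1 and Grap2 were each seen in 43.8% of cells with Ccr2 and 10.4% without, Klra2 in 44.9% and 14.4%, and Clec12a, an inhibitory receptor, in 43.8% and 12.8%. Cd72 differed less, at 32.6% and 25.6%, and Pparg was at 227 and 243 CPM. The rule genes Adgre1 and Mrc1, the mannose receptor, were seen in 83.1% and 73.6% and in 91% and 73.6%, and the macrophage genes of the rule had medians of 14 and 11 UMIs. Stab1 was at 211 CPM with Ccr2 and 438 without over all libraries, and at 236 and 290 in TAC+ART, where 48% and 48.5% of cells held it. Colec12 was at 16.4 and 153 CPM and Igf1, a growth factor, at 131 and 257, but in Sham 17 of 21 Colec12 UMIs and 19 of 27 Igf1 UMIs came from 1 cell each. Of the cardiomyocyte-rich barcodes, 1 lay on the side with Ccr2 and 13 on the side without. Itgal, an integrin of lymphocytes, was seen in 1.12% of cells with Ccr2 and 9.6% without.

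Among resident-type macrophages, 198 also held a UMI of Ccr2. Their Cd74 was at 1403 CPM, below the 1983 of resident-low cells with Ccr2 and above the 819 of those without. Ciita was at 320 CPM and H2-Eb1 at 599, again between both. These 3 genes lay between both in each library. Cx3cr1 was at 34.2, 135 and 153 CPM in Sham, TAC and TAC+ART against 145, 141 and 121 in resident-low cells without Ccr2, and Grap2 at 79.8, 51 and 65 against 18.1, 86.1 and 40.3.

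**Figure D4:**
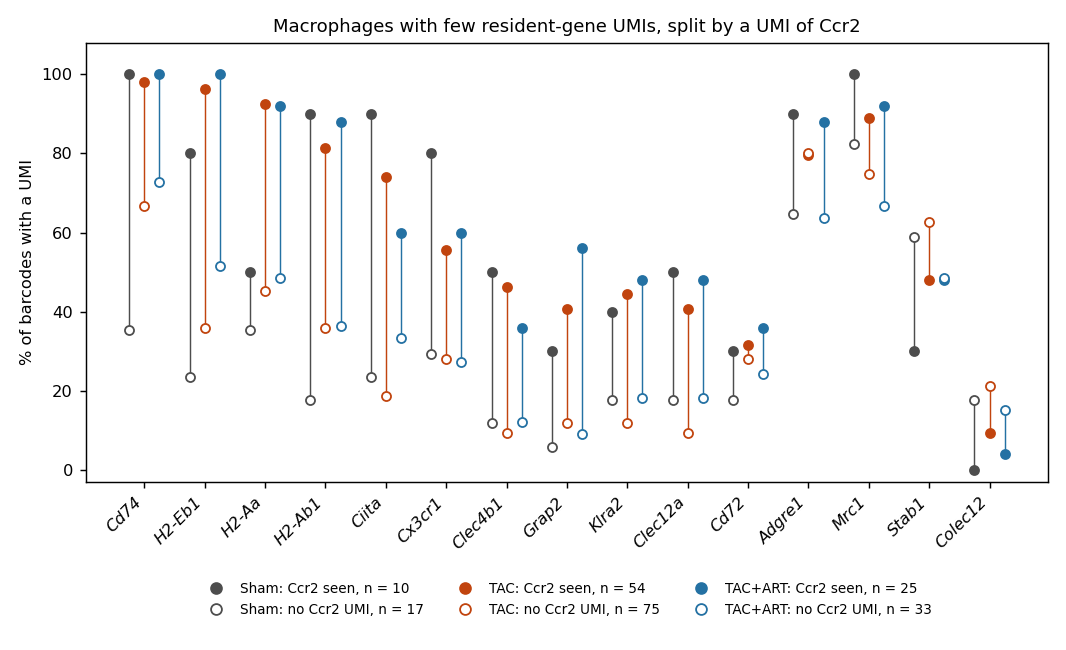
Share of resident-low macrophages with a UMI of each gene, split by whether a UMI of Ccr2 was seen, in each library. MHC class II genes, Ciita and Cx3cr1 lie higher with Ccr2 in all 3 libraries, and for Cd72 both sides lie nearer each other.

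Resident-low macrophages took the largest share of barcodes in the TAC library. They made up 0.72% of the Sham barcodes (Clopper-Pearson interval 0.475% to 1.05%), 1.74% of those from TAC (1.45% to 2.06%) and 0.846% of those from TAC+ART (0.643% to 1.09%). The log2 ratio of shares was 1.27 (0.68 to 1.87) for TAC over Sham, -1.04 (-1.49 to -0.60) for TAC+ART over TAC and 0.23 (-0.42 to 0.89) for TAC+ART over Sham. All gated macrophages together made up 8.66%, 17.6% and 13.7% of barcodes. Of these macrophages, resident-low cells were 8.31% in the Sham library (5.55% to 11.9%), 9.9% in the TAC library (8.33% to 11.7%) and 6.2% in the TAC+ART library (4.74% to 7.94%). The TAC and Sham shares of macrophages thus overlapped in their intervals, with a log2 ratio of 0.25 (-0.32 to 0.83), and TAC+ART lay below TAC by -0.68 (-1.11 to -0.25). When barcodes were thinned to 2000 UMIs before the rule was applied, the shares of macrophages were 6.71%, 13.5% and 8.52%, from 19, 166 and 78 cells. Barcodes under 2000 UMIs were left out there. Among them were 8 of the 27 Sham, 17 of the 129 TAC and 3 of the 58 TAC+ART resident-low cells, and the part of this loss in the shares was not tested. Without barcodes that held markers of other immune cells, the TAC over Sham ratio within macrophages turned to -0.18 and that of TAC+ART over TAC was -0.23. Whether the groups of mice differ cannot be told from 1 library each.

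In the comparison of TAC with Sham, 5 heat shock and early response genes, the cathepsins Ctsb and Ctsd and 2 MHC class II genes were at least 2-fold higher in TAC. Of 3574 genes measured in the resident-low cells, 369 were at least 2-fold higher in TAC (10.3%) and 186 lower (5.20%), and 255 and 156 of them had an interval that left out 0. In 13 of the 369 the Sham count was 0. The lower genes rest on few Sham cells, since in 47 of 186 at least 50% of the Sham UMIs came from 1 barcode and without it 82 were still 2-fold lower. In resident-type macrophages 223 of 4555 genes were higher and 138 lower by the same rule.

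The highest ratios belonged to genes that other heart cells also held in TAC. Postn, a matrix protein of activated fibroblasts, gave 146 UMIs in 86 TAC cells and 0 in Sham, at least 8.08-fold higher. Its TAC level of 278 CPM lay beside 222 in resident-type macrophages, 274 in cardiomyocytes, 264 in endothelial cells and 919 in fibroblasts. Mfap5, a microfibril protein, was at 154 CPM against 769 in TAC fibroblasts. Ccn2, a matricellular growth factor, was at 81.7 against 385, and Nppa, the atrial natriuretic peptide gene, at 270 against 1172 in TAC cardiomyocytes. The part of free RNA in these 4 genes was not tested.

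The other leading genes were detected in resident-type cells of both libraries. Cdyl2, a chromatin reader, gave 66 TAC UMIs and 0 in Sham, at least 3.65-fold higher, where resident-type cells had 84.3 and 98.5 CPM. Atp2b4, a calcium pump, was at 124 CPM and at least 3.60-fold higher, with 43.8 and 27.6 in resident-type cells. Runx3, a transcription factor of leukocytes, gave 42 UMIs in 31 TAC cells and 0 in Sham, at least 2.33-fold higher, with 32.8 and 30.5 CPM in resident-type cells. Jade2, Zbtb44, Thap2, Phtf1 and Ddx21 were likewise at 0 in Sham and between 2.33-fold and 2.55-fold higher as a lower bound. With 0 UMIs in Sham, all these genes passed the filter of 40 UMIs through the TAC cells alone. The Sham floor of 34.3 CPM lies above the Sham resident-type levels of Runx3 and Atp2b4, so 0 UMIs in Sham tells little about either gene. The leading lower genes were carried by single Sham cells. Neb gave 40 UMIs in 1 Sham barcode, Olfr1033 69 in 1, Slc40a1, the iron exporter, 26 of 28 in 1, Pdgfd 27 of 29 in 1 and Ccdc141 37 of 43 in 1. Without that barcode Olfr1033 turned to a log2 ratio of 2.57. Nebl, Shld1, Kcnj3, Cobll1, Stk39, Brd3 and Etl4 also had at least 15 UMIs in 1 Sham cell.

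Of 8 measured immediate early and heat shock genes, 5 were at least 2-fold higher in TAC than in Sham and 0 lower, with a median log2 ratio of 1.33 (0.85 for the same genes in resident-type cells). Over all genes 10.3% were higher in this comparison and 4.33% lower in TAC+ART than in TAC. Hspa8, a constitutive chaperone, was at 91.6, 306 and 117 CPM in the Sham, TAC and TAC+ART cells, and Hsp90aa1 at 22.9, 95.1 and 49.6. The early response factor Jun was at 11.4, 112 and 72.2 CPM, from 1 UMI in Sham. In TAC+ART over TAC, 8 of 8 of these genes lay below 0, 3 of them at least 2-fold lower, with a median of -0.81 (-0.67 in resident-type cells). They were Hsph1, a chaperone cofactor, with 40 UMIs in TAC and 1 in TAC+ART and a log2 ratio of -3.51 (-9.41 to -1.51), the antiproliferative gene Btg2 at -2.62 (-4.69 to -1.35), and Hspa8 at -1.36 (-2.04 to -0.78). Hspa8, Hsp90aa1 and Hsph1 were highest in the TAC library in both macrophage classes.

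In TAC+ART against TAC, more of the measured genes were lower than higher, but the filter on summed UMIs bears on this. The TAC class held 526022 UMIs and the TAC+ART class 221681, so genes high in TAC passed more easily. The part of this in the counts was not tested. Of 4138 genes, 125 were at least 2-fold higher (3.02%) and 179 lower (4.33%), and in 26 of the 125 at least 50% of the TAC+ART UMIs came from 1 barcode. This held for 2 of the 179, and without the top barcode 89 and 177 were still 2-fold apart. In resident-type cells 63 of 4357 were higher and 40 lower. Both comparisons use the TAC library, so a value peculiar to that library appears in each with the opposite sign.

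Pde3b, a phosphodiesterase that breaks down cyclic AMP, had the most UMIs of the 12 leading lower genes. Its level was 195, 962 and 144 CPM in the Sham, TAC and TAC+ART cells, seen in 7, 98 and 17 cells, so TAC stood apart from both other libraries. The log2 ratio of TAC+ART over TAC was -2.72 (-3.30 to -2.22), against -1.69 (-1.77 to -1.61) in resident-type cells, a difference of -1.03 (-1.54 to -0.51). Cpeb2, a regulator of translation, was at 22.9, 150 and 27.1 CPM while resident-type cells were at 115, 118 and 98.8. Its log2 ratio was -2.37 (-3.96 to -1.29) against -0.26 (-0.43 to -0.08), a difference of -2.11 (-3.28 to -0.94). Calr, a chaperone of the endoplasmic reticulum, was at 126, 209 and 54.1 CPM. Pim1, a survival kinase, Cct3, a chaperonin subunit, Parp6, Auh and Eef2k, a kinase that slows translation, had ratios between -2.03 and -2.21 from 3 or 4 UMIs each in TAC+ART. Angpt1, a ligand of endothelial cells, had 55 of its 87 TAC UMIs in 1 cell and Fat3 22 of 44.

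The genes leading in TAC+ART were mostly those of single cells. Wdr17 had 46 of 57 UMIs in 1 barcode, Rbfox1, a splicing factor of muscle and nerve, 64 of 75, Gpm6a 39 of 47, Flrt2 40 of 48, Slit3 40 of 50, D830005E20Rik 61 of 85 and Bicd1 22 of 34. Rad51b, which acts in DNA repair, was less concentrated, with 94 UMIs in 13 cells and at most 28 in 1. It was at 424 CPM against 62.7 in TAC, a log2 ratio of 2.74 (2.17 to 3.38), with 0.75 (0.62 to 0.89) in resident-type cells. Rhobtb1 was at 140 against 24.7 CPM, a ratio of 2.47 (1.52 to 3.56) with 1.32 in resident-type cells. Shroom3, Filip1 and Plce1 had ratios of 2.73, 2.60 and 2.51 from 40, 34 and 32 UMIs, of which 17, 13 and 16 came from 1 cell.

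Several lysosomal and lipid-associated genes were highest in the TAC library. Ctsd, a lysosomal protease, was at 57.2, 230 and 67.7 CPM in the Sham, TAC and TAC+ART cells, and Ctsb, another, at 229, 551 and 266. The galectin Lgals1 was at 45.8, 127 and 58.6 and Fth1, the ferritin heavy chain, at 160, 513 and 325. In the lipid-associated list 4 of 15 genes were at least 2-fold higher in TAC than in Sham and 0 lower, while TAC+ART had 4 of 17 lower than TAC and 0 higher, with medians of 0.60 and -0.08. Over all genes 10.3% were higher in the first comparison and 4.33% lower in the second, the medians were 0.05 and -0.07, and in resident-type cells the listed genes had medians of 0.63 and -0.24. The lysosome and iron list, which shares Ctsb and Ctsd with it, was mixed, with 3 of 23 genes higher and 3 lower in TAC than in Sham and 1 higher and 2 lower in TAC+ART than in TAC. The difference of TAC+ART over TAC between resident-low and resident-type cells was -1.24 (-2.01 to -0.46) for Ctsd and -0.71 (-1.12 to -0.31) for Ctsb. Spp1, Trem2 and Gpnmb, the best known genes of lipid-associated macrophages, gave only 0, 4 and 1, 1, 18 and 14, and 0, 10 and 0 UMIs in Sham, TAC and TAC+ART.

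Of 9 measured MHC class II genes, 7 lay above 0 in TAC over Sham, with a median of 0.77 (0.26 in resident-type cells). At least 2-fold higher in TAC than in Sham were 2 of the 9 (H2-DMb1 at 1.52 and H2-Ab1 at 1.25), where over all genes 10.3% were higher. Between TAC+ART and TAC, 7 of 9 ratios lay below 0, 0 of 9 were 2-fold apart, and the median was -0.25. Cd74 had -0.56 (-0.78 to -0.35). For the same 9 genes in resident-type cells, the median TAC+ART over TAC ratio was 0.60. H2-Eb1 was at 618 CPM in both TAC and TAC+ART resident-low cells, while resident-type cells went from 133 to 236, a difference between the log2 ratios of -0.83 (-1.14 to -0.51). For H2-Ab1 the difference was -0.80 (-1.16 to -0.45) and for Cd74 -1.04 (-1.27 to -0.82). The resident-type cells of TAC+ART thus stood closer to the resident-low cells in these genes than those of TAC did.

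The chemokine receptors were not higher in TAC. Ccr2 was lower in the TAC than in the Sham cells, by a log2 ratio of -0.81 (-1.22 to -0.35), while TAC+ART over TAC was -0.01 (-0.40 to 0.36). The share of cells with a Ccr2 UMI was nevertheless not lower in TAC (41.9% against 37%), and 13 of the 58 Sham UMIs came from 1 cell, without which and without the top TAC cell the ratio was -0.63. Cx3cr1 had -0.57 (-1.17 to 0.11) and 0.46 (-0.01 to 0.91). Tgfbr1 was at 790, 1245 and 1543 CPM in Sham, TAC and TAC+ART, where resident-type cells had 210, 410 and 306. The ratio of TAC+ART over TAC was 0.31 (0.12 to 0.50) against -0.42 (-0.52 to -0.33). The cytokine gene Il1b was at 22.9, 72.2 and 63.2 CPM, from 2, 38 and 14 UMIs, and at 12.8, 35.4 and 6.66 in resident-type cells. Its ratio of TAC+ART over TAC was -0.16 (-1.19 to 0.72) against -2.39 (-3.02 to -1.85), a difference of 2.23 (1.19 to 3.26).

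The study's title names MD2, the protein of Ly96, which binds lipopolysaccharide together with the receptor TLR4. Ly96 gave 8, 24 and 5 UMIs in the Sham, TAC and TAC+ART resident-low cells, or 91.6, 45.6 and 22.6 CPM, where resident-type cells had 64.5, 72.6 and 76.3. Its log2 ratio was -1.06 (-2.21 to 0.36) for TAC over Sham, -0.91 (-2.76 to 0.40) for TAC+ART over TAC and -1.97 (-3.98 to -0.23) for TAC+ART over Sham. In each of these comparisons Ly96 fell below the filter on summed UMIs, so it is not among the measured genes. Tlr4 was at 160, 124 and 217 CPM against 173, 187 and 184. Cd14, which hands lipopolysaccharide to the pair, was at 22.9, 83.6 and 27.1 CPM, with -1.53 (-3.15 to -0.39) for TAC+ART over TAC. Of 18 genes of this pathway measured in TAC+ART over TAC, 1 was at least 2-fold higher and 2 lower, with a median of -0.01. Over all genes 3.02% were higher and 4.33% lower.

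**Figure D5:**
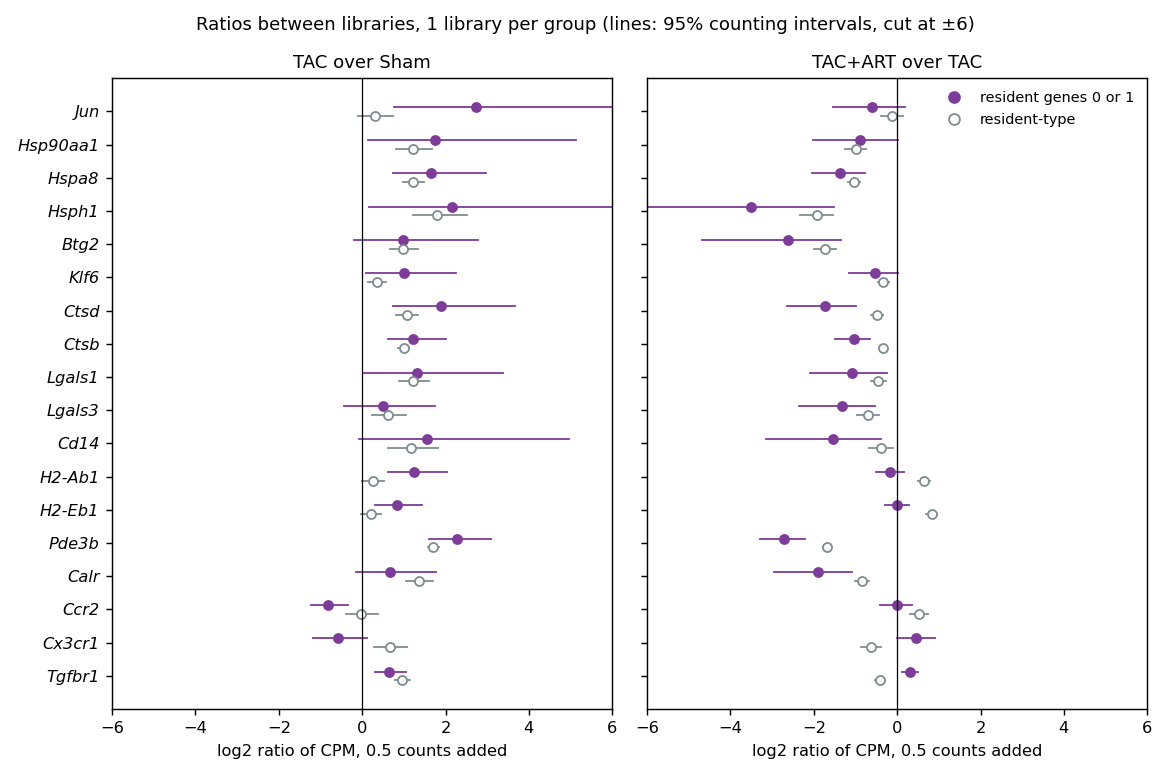
Log2 ratios between libraries for genes named in the text, in resident-low (filled) and resident-type (open) macrophages, with TAC over Sham on the left, TAC+ART over TAC on the right and 95% counting intervals drawn to 6 on either side. The plotted chaperone and cathepsin genes lie right of 0 in the left panel and left of 0 in the right one, and H2-Ab1 and H2-Eb1 lie apart between the classes in the right panel.

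TAC+ART was also set against Sham. Of 1811 genes measured, 133 were at least 2-fold higher (7.34%) and 61 lower (3.37%), and in 15 and 17 of them at least 50% of the UMIs came from 1 barcode. Without the top barcode 124 and 30 were still 2-fold apart. Of the genes named above as high in TAC, some had small ratios to Sham, with log2 values of -0.45 (-1.32 to 0.51) for Pde3b, 0.19 (-0.54 to 1.03) for Ctsb, 0.15 (-1.29 to 2.06) for Ctsd and 0.30 (-0.83 to 1.71) for Hspa8, the intervals of which are wide. Others had values above 0, with 0.98 (0.18 to 1.96) for Fth1, 2.12 (-0.03 to 8.05) for Jun, 0.86 (-1.08 to 4.33) for Hsp90aa1 and 1.19 (-0.66 to 4.64) for Il1b. Postn, at 162 CPM against 0 in Sham, was at least 4.73-fold higher. Calr had a ratio of -1.22 (-2.53 to 0.10). H2-Ab1 was higher than in Sham, at 1.09 (0.41 to 1.91), and Tgfbr1 at 0.96 (0.59 to 1.36). In this comparison Ctsd, Hspa8, Jun, Hsp90aa1, Il1b, Calr and Postn fell below the filter on summed UMIs. They are not among the 1811 measured genes, and their values rest on few UMIs.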

How the data were processed

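Counts per gene and barcode were deposited as 1 matrix for each of 3 libraries. They were made with Cell Ranger and Seurat on mm10, per the submitters' processing notes, without versions. The labels do not say whether cells or nuclei were loaded. All barcodes were kept; doublets were scored and removed only in an alternative. For each class of a library, summed UMIs were scaled to 1000000 (CPM). Log2 ratios carry 0.5 added counts and exact conditional binomial intervals, shares Clopper-Pearson or delta-method intervals, all 95%. Genes needed 100 UMIs in both classes together over the libraries (between classes) or 40 in both libraries together (between libraries), and 50 CPM in the higher one. Called means 2-fold or more. A count of 0 was replaced by a floor of 3 for bounds.

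The members, the 19 gene lists and the rules were chosen with earlier results of these data known. Named genes were the 15 highest and 10 lowest between classes and the 12 highest and 12 lowest between libraries, without mitochondrial, ribosomal, haemoglobin and sex-linked genes and genes over 5-fold lower than in another cell type, with up to 4 per list and Ly96, Tlr4, Cd14, Ccr2, Spp1, Trem2, Gpnmb, Il1b and Cx3cr1. Others named (among them Cd74, the H2 genes, Ciita, Pparg, Maf, Rbpj, Spi1, Tgfbr1, Hspa8, Hsp90aa1, Ctsb, Ctsd, Fth1 and Klra2), the genes of the Ccr2 split and the promoters shown were chosen after their values were seen. Computation used Python 3.11.15, numpy 2.4.6, scipy 1.17.1, pandas 2.3.3 and scikit-learn 1.9.0, and was tested on simulated data.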

Additional observations from a re-analysis of the deposited data

How the results depend on the processing

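No paired analysis was possible because each group has 1 library. Alternatives were a quality and doublet filter, a resident sum of 0, at least 6 macrophage UMIs, at most 8000 UMIs, no markers of other immune cells, thinning, another scaling, 1 added count, stricter or no filters and equal weight per barcode. Chosen after seeing the data were removing cardiomyocyte-rich barcodes, the top barcode, and the Sham library. For log2 share ratios, thinning to 2000 UMIs, with shallower barcodes left out, gave 2.16 for TAC over Sham among all barcodes and 1.0 among macrophages. Removing markers of other immune cells gave -0.18 and, for TAC+ART over TAC, -0.23 among macrophages, where it also took most resident-type cells (62, 308 and 174 stayed). The 152 genes called between classes became 87 under that removal, 243 without the CPM filter and 264 without the Sham library. With a filter of 200 UMIs, the 369 higher and 186 lower genes called for TAC over Sham became 39 in all, the 304 for TAC+ART over TAC 19 and the 194 for TAC+ART over Sham 4, since fewer genes were measured. Signs turned for Olfr1033 (2.75 without cardiomyocyte-rich barcodes, 2.57 without the top barcode), Nebl (0.04 without cardiomyocyte-rich barcodes), both TAC over Sham, and Flrt2 (-0.46 at a resident sum of 0, TAC+ART over TAC). Of the values for named genes, 804 stayed within their interval, 68 moved beyond it and 4 turned. Median-of-ratios scaling moved the median of all genes from 0.05 to 0.15 for TAC over Sham and from 0.00 to 0.15 for TAC+ART over Sham. The 27 Sham cells limit all comparisons with Sham, since 3 counts there correspond to 34.3 CPM.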
